A study of Caenorhabditis elegans with 6 samples.

Results

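Seven-transmembrane chemoreceptor genes that reached measurable counts in whole *C. elegans* hermaphrodites are described here, gene by gene and family by family. The genes were taken by symbol from 22 families (*sra*, *srab*, *srb*, *srbc*, *srd*, *sre*, *srg*, *srh*, *sri*, *srj*, *srm*, *srn*, *srr*, *srsx*, *srt*, *sru*, *srv*, *srw*, *srx*, *srxa*, *srz* and *str*) when they were listed in the deposited table of normalized counts, which holds genes with more than 60 counts summed over all libraries. Of 1309 such genes among the 46756 genes counted, 97 were in that table. *str-173*, *sri-19*, *srr-6*, *sri-36* and *sri-39* were left out, so that 92 genes in 21 families remained. The total count thus chose the genes. *str-173*, *srr-6* and *sri-19* are among those the study called in this contrast, so no share of called genes given here describes the chemoreceptors as a class.

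Poly(A) RNA of whole worms was sequenced in 6 libraries. Worms with fewer than 2 exophers gave the 3 low exopher libraries, and worms with more than 20 gave the 3 high exopher libraries. All worms were hermaphrodites of strain ACH93 on adulthood day 2, grown at 20 °C on *Escherichia coli* OP50 without further treatment. The strain is wild type apart from 2 integrated transgenes, in which the *myo-3* promoter drives a red proteasome subunit (RPN-5 fused to wrmScarlet) and a green marker of the outer mitochondrial membrane in body wall muscle, and both carry *unc-119*(+). Exophers are large vesicles shed by these muscles, and the study asked which genes differ between worms that make many and worms that make few. The libraries held between 60511481 and 72909583 counts.

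Chemoreceptors of nematodes are G-protein-coupled receptors that sit mostly in the cilia of sensory neurons, where a ligand such as an odour, a bacterial metabolite or an ascaroside pheromone activates a G protein and, through it, cyclic nucleotide-gated or TRP channels. Most are transcribed in very few neurons per worm, and many neurons express several at the same time. The families are grouped by sequence into the Str superfamily (*srd*, *srh*, *sri*, *srj*, *srm*, *srn* and *str*), the Sra superfamily (*sra*, *srab*, *srb* and *sre*) and the Srg superfamily (*srg*, *srt*, *sru*, *srv*, *srx* and *srxa*), with *srbc*, *srr*, *srsx*, *srw* and *srz* standing apart. Many members lie in tandem arrays, above all on chromosome V.

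Measurable counts were rare in this gene class. The table held 7.41% of the listed chemoreceptor genes and 34.8% of all other genes, and 302 of the 1212 chemoreceptor genes outside it had no count in any library. All 1309 listed genes are annotated as protein-coding, while the other genes were taken whatever their type, so the 2 shares are not of like sets. The share that reached the table differed widely between families. It was 55.6% (5 of 9) for *srr* and 33.3% (2 of 6) for *srm*, but only 11 of 220 genes for *srh*, 7.77% (15 of 193) for *str* and 1.41% (1 of 71) for *srbc*. The single *srn* gene did not reach it. These shares count the genes left out here and are a description of a threshold on counts.

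Well-known receptors reached the table about as rarely as the class. Of 26 receptors listed for a role known from the literature, 24 were outside the table, with totals between 0 and 32 counts over the 6 libraries. The largest of these totals was that of *sra-11*. *srg-36* and *srg-37*, receptors of a dauer pheromone in the ASI neurons, had 5 counts each, and *srbc-64* and *srbc-66*, pheromone receptors of the ASK neurons, had 14 and 2. *str-2*, a marker of 1 of the AWC neurons, had none, which allows up to 3 counts over all libraries. *sra-6*, a marker of the ASH neurons, had 10, and *srh-234* of the ADL neurons had 1. The other 2 of the 26, *srb-16* and *srg-34*, were in the table with totals of 102 and 207, a share of 7.69% beside 7.41% of all listed chemoreceptor genes. At the threshold itself, *srxa-10* was just inside with 61 counts and *sra-10* and *str-227* followed with 62, while *sre-16*, *srsx-36* and *srx-12* were just outside with 60 each. In bulk RNA, fewer cells of a type and less RNA per cell cannot be told apart.

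The genes kept were spread over all chromosomes, with 50 of 92 on chromosome V and 21 on chromosome II. Chromosome V held 68.0% of the listed chemoreceptor genes and 54.3% of the genes kept, chromosome II 12.9% and 22.8%, and chromosome I 2.60% and 6.52%. Put differently, 5.73% of the listed genes on chromosome V, 13.6% of those on chromosome II and 17.6% of those on chromosome I were in the table.

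**Figure D1:**
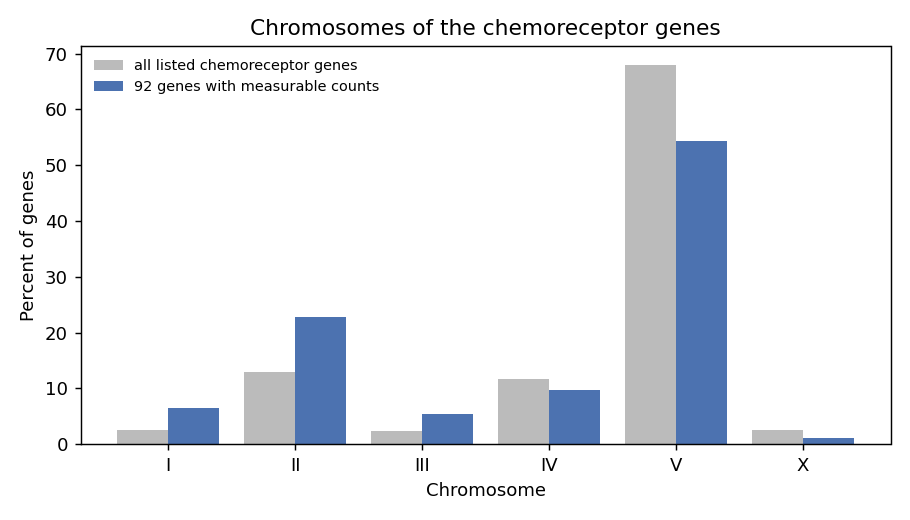
Share of genes on each chromosome, in percent, for all 1309 listed chemoreceptor genes (grey bars) and for the 92 genes with measurable counts (blue bars). Chromosome V holds 68.0% of the first and 54.3% of the second, and chromosome II 12.9% and 22.8%.

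The 92 genes covered a wide range of levels, but most were close to the floor of the measurement. Their median was 22.2 normalized counts, where the normalized count is the count scaled to the mean effective library size, against 534 for all 15883 genes tested. A mean below 20 was found in 42 genes, between 20 and 100 in 39 and above 100 in 11. Per kilobase of exon, which allows genes to be compared, the levels ran from 2.53 for *sri-57* to 1096 for *sri-40*, with a median of 17.6. All 92 had at least 2 counts in every library.

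A few genes carried most of the signal. *sri-40*, *srr-4*, *srh-237* and *srv-1* together made up 56.9% of the normalized counts of the 92 genes. Per kilobase *sri-40* was highest (1096), followed by *srr-4* (811), *srh-237* (603), *srv-1* (446), *srw-86* (209), *sra-14* (201), *srh-71* (105) and *str-176* (101). The 4 leading genes belong to 4 different families and lie on chromosomes II, V, V and III. Within its family, *sri-40* made up 93.2% of the normalized counts, *srr-4* 92.8%, *srv-1* 82.4% and *srh-237* 56.7%, so that the family sums mostly followed 1 gene.

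**Figure D2:**
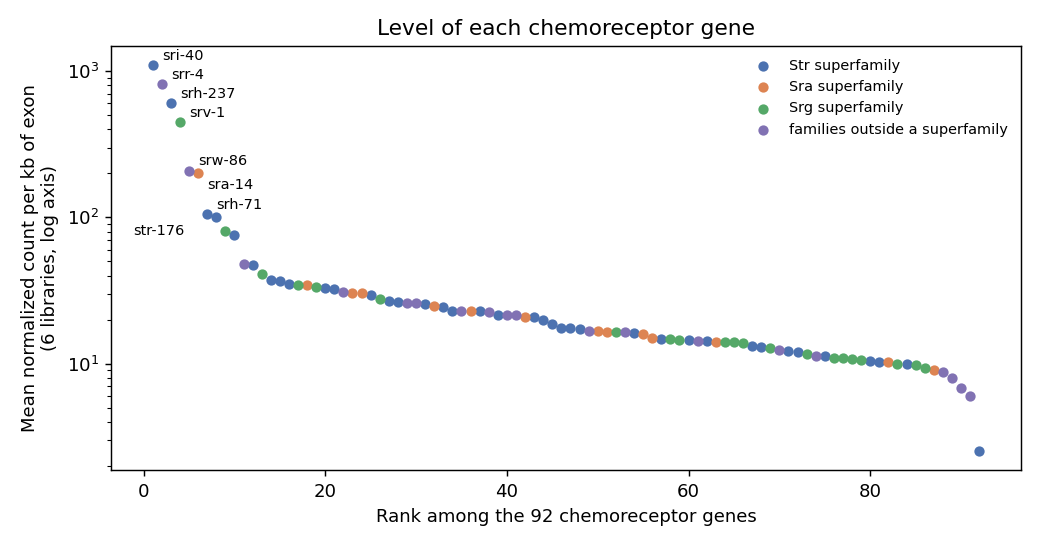
Mean normalized count per kilobase of exon over the 6 libraries (log axis) for each of the 92 chemoreceptor genes, ranked from highest to lowest and coloured by superfamily. 4 genes lie above 400 per kilobase, while the median gene lies at 17.6.

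*sri-40* (WBGene00005552), on the forward strand of chromosome II from 3177963 to 3180478 in WBcel235, had 1543, 1558 and 1864 normalized counts at low and 1186, 1306 and 557 at high exopher number. All high exopher libraries were below all low ones, and high replicate 3 stood far below the others. The log2 fold change, high over low, was -0.70 (standard error, SE, 0.290, edgeR adjusted p = 0.264), and -0.41 without high replicate 3. The neighbouring receptor gene *sri-78*, at a distance of 4679 bases, had 2 counts in all libraries.

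*srr-4* (WBGene00005655, chromosome V from 5019224 to 5022363) had 970, 1908 and 1141 normalized counts at low and 922, 1250 and 818 at high exopher number. The groups overlapped, but within each replicate number the high exopher library was the lower one. Its log2 fold change was -0.43 (SE 0.274, edgeR adjusted p = 0.552), and -0.10 without low replicate 2. DESeq2 with the replicate number as a block gave an adjusted p of 0.0484, and edgeR with the same block 0.109, both at a change below the fold change threshold. The gene lies 4004 bases from *srr-6* on the same strand.

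*srh-237* (WBGene00005444, chromosome V from 17090379 to 17091714) had 709, 966 and 324 normalized counts at low and 856, 633 and 248 at high exopher number. Replicate 3 was lowest in both groups, and the groups overlapped throughout. *srv-1* (WBGene00005712, chromosome III from 6850385 to 6853203) had 548, 723 and 595 against 703, 636 and 411. The log2 fold changes were -0.20 (SE 0.499) and -0.09 (SE 0.230), both smaller than their error, and turned positive when low replicate 2 or high replicate 3 was left out.

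*sra-14* (WBGene00005040, chromosome II from 12885272 to 12888608) had 248, 108 and 372 normalized counts at low and 187, 91.0 and 274 at high exopher number. Replicates 3, 1 and 2 followed each other in this order in both groups, and the high exopher library was lower within each number. The spread between the numbers was larger than the difference between the groups, with a log2 fold change of -0.40 (SE 0.512, edgeR adjusted p = 0.808). *srw-86*, a gene of only 597 exon bases, had 114, 142.3 and 137 against 118, 150 and 86.7.

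Among the 11 genes with a mean above 100 normalized counts, 10 had a log2 fold change below 0, with a median of -0.40. The exception was *srh-71*, with 76.6, 112 and 82.7 normalized counts at low and 69.6, 160 and 157 at high exopher number (log2 fold change 0.51, standard error 0.364). High replicate 3 held the lowest value of all libraries in 7 of the 11 genes, and in 20.2% of all genes in the table. Among the other 79 genes fitted, 37 were above 0 and 42 below, with a median of -0.09. The 92 genes took 99.0 to 114 CPM (counts scaled to the library total) in 5 of the libraries and 68.7 in high replicate 3. Their summed normalized counts were 7217 ± 495 (SD, n = 3) at low and 5898 ± 1118 (SD, n = 3) at high exopher number, and without the 4 leading genes 2934 ± 264 and 2723 ± 133 (SD, n = 3 each).

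**Figure D3:**
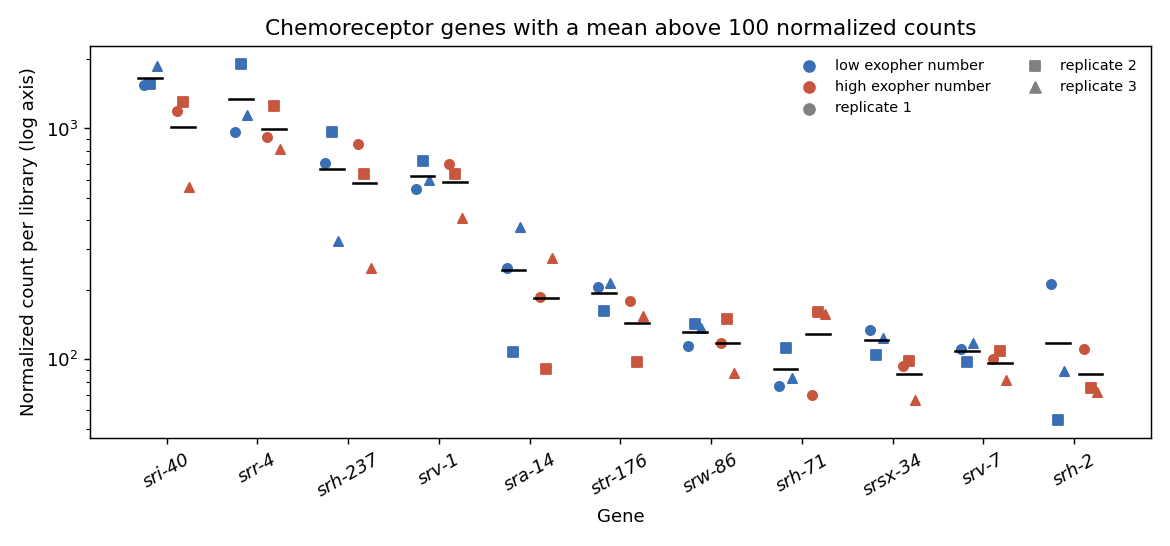
Normalized count in each library (log axis) for the 11 chemoreceptor genes with a mean above 100, for low (blue) and high (red) exopher number. Symbols mark the replicate number and bars the group mean of 3 libraries. *sri-40* and *srsx-34* are the genes whose groups do not overlap, and high replicate 3 is lowest in 7 of the 11 genes.

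The summed counts of a list of intestinal genes, most of them from yolk protein genes, were lower in the same group. In this list of 12 genes, which holds yolk protein genes and the digestive enzymes *asp-1* and *ges-1*, 11 were below 0, with a median log2 fold change of -0.38. Only *elt-2* (0.13) was above 0, where 47.2% of all genes tested were. *ifb-2* (-0.06) and *elt-7* (-0.15) had values smaller than their standard errors. None passed the thresholds, against 5.74% of all genes. The summed normalized counts of the list ranged from 4596710 to 5754370 at low and from 3106840 to 4171570 at high exopher number, with the lowest sum in high replicate 1. These sums mostly followed the yolk protein genes *vit-2*, *vit-5* and *vit-6*, with means of 1858660, 1368790 and 1834450 at low exopher number. The part of the intestinal genes in the receptor levels was not tested.

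The comparison of high with low exopher number asked which receptor genes differ with exopher output. Of the 92 genes, 90 passed the filter on low counts and were tested, and 0 passed the thresholds of edgeR's quasi-likelihood test, against 5.74% of all genes tested (2.95% higher and 2.78% lower). A call required a Benjamini-Hochberg adjusted p under 0.05 together with a log2 fold change past 1 in either direction. The filter asked for the equivalent of 10 counts in at least 3 libraries, which *srg-31* and *srx-92* reached in 2 each. DESeq2 and limma-voom also called 0, against 7.55% and 4.75% of all genes. At an unadjusted p below 0.05, edgeR gave 8 genes, 4 higher and 4 lower, against 17.0% of all genes, with 8.98% higher and 8.07% lower. DESeq2 gave 6 at that level, against 18.5%, and limma-voom 8, against 16.9%. The smallest adjusted p of edgeR was 0.0835, that of DESeq2 0.0625 and that of limma-voom 0.0821, each for *srm-1*. Since genes called in this contrast were left out, nothing is read from these shares.

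Libraries of the same replicate number deviated together across all genes, though the labels state no pairing. With the number as a block, edgeR called 1 gene higher, *sru-20*, and 1 lower, *srw-69*, against 7.97% of all genes (4.29% higher and 3.68% lower), while DESeq2 with the block called 0, against 6.99%. *srw-69* passed the filter on low counts through its low exopher libraries alone, so that a difference was built into its being tested. At an unadjusted p below 0.05 these fits gave 12 genes, against 24.6%, and 3, against 21.3%. In 31 of the 92 genes all 3 same-numbered comparisons went one way, 14 upward and 17 downward, against 45.5% of all genes in the table (21.1% upward and 24.4% downward).

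The fold changes of these genes had larger errors than those of most genes tested. The median standard error of the log2 fold change was 0.424 for the 90 genes and 0.219 for all genes tested. The log2 fold changes ran from -1.77 for *srw-69* to 1.63 for *sru-20*, with quartiles of -0.40 and 0.24 and a median of -0.12, where the median of all genes tested was -0.01. Of the 90, 38 (42.2%) were above 0, against 47.2% of all genes tested, and 9 differed from 0 by more than 1, against 10.8% of all genes tested. Without high replicate 3 the median of the members was 0.0079.

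Among the genes with a higher level in worms with many exophers, *srm-1* (WBGene00005638, chromosome IV from 5012541 to 5014842) was the most even. It had 21.5, 18.8 and 23.0 normalized counts at low and 46.4, 43.5 and 43.4 at high exopher number. The libraries of each group were close together and the groups were far apart. Its log2 fold change was 1.07 (SE 0.297, unadjusted p = 0.00722, edgeR adjusted p = 0.0835), and leaving out single libraries gave 0.98 to 1.13. DESeq2 gave an adjusted p of 0.0625, edgeR with the block 0.0603 and DESeq2 with the block 0.274. Its relative *srm-2*, 1751 bases away, had 0 counts, and *srm-3*, the other *srm* gene measured, had a log2 fold change of 0.13 (SE 0.520).

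*sru-20* (WBGene00005683, chromosome IV from 12495496 to 12497923) had the highest fold change, with 16.8, 15.7 and 4.60 normalized counts at low and 69.6, 26.3 and 21.2 at high exopher number. High replicate 1 was far above the rest, and low replicate 3 was lowest. The log2 fold change was 1.63 (SE 0.626, edgeR adjusted p = 0.221), or 0.91 without high replicate 1. With the replicate block it was 1.61 and the adjusted p from edgeR 0.0437, while DESeq2 with the block gave 0.133. It is the only *sru* gene in the table, and the next *sru* gene, *sru-19* at 614 bases, had 0 counts. Of the further *sru* genes within 10000 bases, *sru-18* had 38 counts, and *sru-17* and *sru-26* had 4 each.

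*srh-171* (WBGene00005387, chromosome V from 19965700 to 19972559) had raw counts of 6, 11 and 3 at low and of 29, 15 and 18 at high exopher number. All high exopher libraries were above all low ones, though every count was small. It reached the minimum of the filter on low counts in 3 high exopher libraries and 1 low one. Its being tested thus rested mostly on the group where it is high. The log2 fold change was 1.51 (SE 0.520, edgeR adjusted p = 0.165). *srd-32* (WBGene00005110, chromosome V from 4865664 to 4870392) had 13.1, 14.7 and 14.9 normalized counts at low and 25.1, 36.4 and 22.2 at high exopher number, a log2 fold change of 0.96 (SE 0.359, edgeR adjusted p = 0.207). Its low exopher libraries were close together, and its high ones were all higher.

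Among the genes with a lower level in worms with many exophers, 3 were neighbours. *srw-68*, *srw-69* and *srw-71* follow each other on the reverse strand of chromosome V between 7425259 and 7431116, with 631 bases between the first 2 and 358 between the last 2. *srw-69* and *srw-71* were the 2 genes that passed the filter only through the low exopher libraries, where they are high, and their p-values are no support for a difference. *srw-69* (WBGene00005816) had 15.9, 12.6 and 32.2 normalized counts at low and 4.64, 5.06 and 7.71 at high exopher number. Its log2 fold change was -1.77 (SE 0.516, edgeR adjusted p = 0.0990 and 0.0363 with the replicate block, but 0.253 from DESeq2 with the block). *srw-71* (WBGene00005818) had 14.02, 11.5 and 32.2 against 6.50, 6.07 and 8.67, a log2 fold change of -1.41 (SE 0.520, edgeR adjusted p = 0.201). *srw-68* (WBGene00005815) had 16.8, 12.6 and 49.4 against 9.28, 12.1 and 11.6, a log2 fold change of -1.24 (SE 0.576, edgeR adjusted p = 0.340).

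Low replicate 3 was the highest library for all 3 of these genes. Their summed normalized counts were 46.7, 36.6 and 114 at low and 20.4, 23.3 and 27.9 at high exopher number. The groups did not overlap in any of the 3 genes after normalization, so the sums could not overlap either and add no support. For *srw-68* the gap came from the scaling alone, since low replicate 2 and high replicates 2 and 3 each had 12 raw counts. With low replicate 3 left out, the values were -1.28 for *srw-69*, -0.84 for *srw-71* and -0.42 for *srw-68* on the log2 scale. None of them shares exon bases with another gene. Of the further receptor genes within 10000 bases, *srw-67* had 2 counts and *srxa-4* had 3. The other *srw* genes measured, *srw-48*, *srw-86* and *srw-145*, lie elsewhere and had log2 fold changes of -0.21, -0.15 and 0.41.

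*srj-14* (WBGene00005602, chromosome V from 7369708 to 7372131) had 135, 71.2 and 82.7 normalized counts at low and 68.7, 47.5 and 50.1 at high exopher number. Replicate 1 was highest in each group, and the highest of the high exopher libraries lay just under the lowest of the low ones. The log2 fold change was -0.80 (SE 0.335, edgeR adjusted p = 0.274), and -0.49 without low replicate 1. *sri-57* had the third lowest fold change, -1.39 (SE 0.728, edgeR adjusted p = 0.419), from 29, 15 and 5 counts against 2, 11 and 6. The groups overlapped. Of its 4433 exon bases, 1964 are shared with exons on the same strand and 83 with exons on the other strand. *F22E5.22* is the only protein-coding gene among those that share bases with it.

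**Figure D4:**
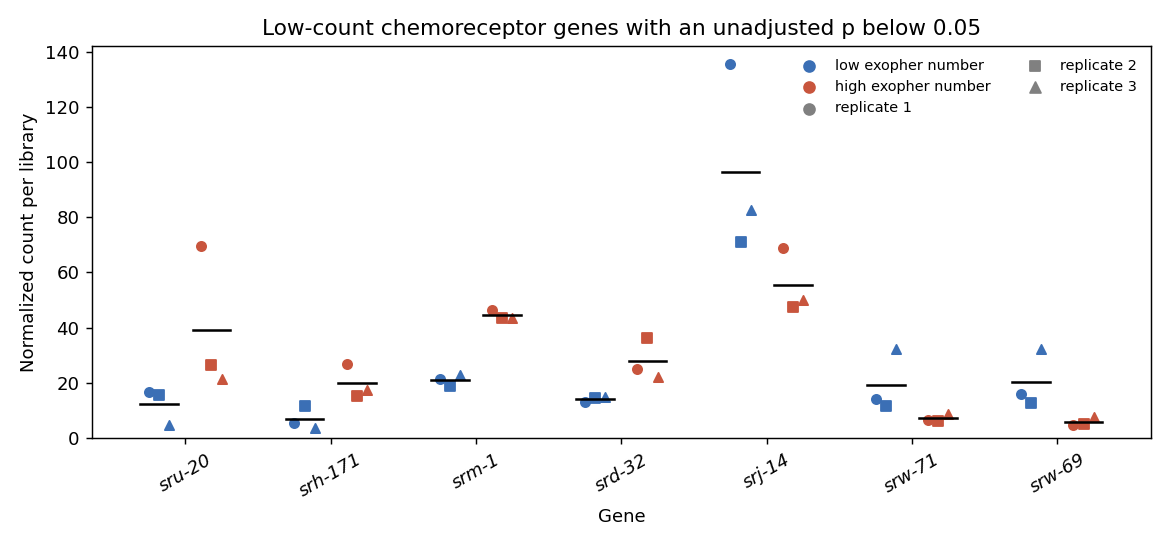
Normalized count in each library (linear axis) for the 7 chemoreceptor genes other than *sri-40* with an unadjusted p below 0.05, ordered by fold change, for low (blue) and high (red) exopher number. Symbols mark the replicate number and bars the group mean of 3 libraries. The libraries of *srm-1* lie close together within each group, while *sru-20* has 69.6 in high replicate 1 and *srw-69* and *srw-71* have 32.2 in low replicate 3.

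The normalized counts of the groups did not overlap in 17 of the 92 genes, against 22.2% of all genes in the table. With 3 libraries a side, the smallest two-sided p of an exact permutation test is 0.1. High was above low in 8 of them, against 11.8% of all genes, and below in 9, against 10.4%. Beside the genes described above, the higher ones were *srr-1* (16.7 to 27.1 in low and 34.7 to 38.98 in high), *str-148* (20.7 to 42.05 and 44.3 to 56.6), *srg-23* and *srz-97*. The lower ones were *srsx-34* (105 to 134 in low and 66.5 to 98.1 in high), *str-245* (44.9 to 61.7 and 23.1 to 41.5), *str-172* (13.6 to 25.3 and 9.28 to 11.1) and *sra-32* (28.2 to 39.1 and 14.8 to 25.3). Their adjusted p values from edgeR were between 0.361 and 0.691.

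The families were set side by side by the fold changes of their members. The rule kept 5 of the 8 *sri* genes in the table, 4 of the 5 *srr* genes and 14 of the 15 *str* genes. Genes called in this contrast are among those left out, so the values of these families describe only the genes kept. The *str* family, with 14 genes the largest here, had 6 above 0 and 8 below, a median of -0.18 and a range of -0.83 to 0.77. The *srh* family had 6 of 11 above 0, a median of 0.06 and a range of -0.46 to 1.51. In the *srx* family 5 of the 7 genes tested were below 0, with a median of -0.14, and in the *sre* family 4 of 7 were above 0, with a median of 0.11. The *sri*, *srd* and *srr* families were split as well, with medians of -0.22, -0.01 and 0.08. In the *srg* family 2 of the 3 genes tested were above 0, with a median of 0.44, and in the *srz* family 2 of 3 were below, with a median of -0.57.

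Some smaller families had members on 1 side only. All 5 *sra* genes were below 0, from -0.57 for *sra-32* to -0.09 for *sra-10*, and all 4 *srv* genes were, from -0.43 for *srv-2* to -0.09 for *srv-1*. All 3 *srt* genes were above 0, from 0.21 for *srt-39* to 0.74 for *srt-42*, and both *srm* genes were, while both *srj* genes were below. With 1 library left out, *sra-10*, *sra-14*, *sra-33*, *sra-35*, *srv-1*, *srt-39*, *srm-3* and *srj-9* crossed 0, so these sides rest in part on single libraries. In the *srsx* family 4 of 5 were below 0, with *srsx-18* lowest at -1.05 (SE 0.586), and in the *srw* family 5 of 6 were. No gene of these families passed the thresholds with edgeR without the replicate block, and members of a family are not replicates. On chromosome II, *sra-32* lies between *sra-35* and *sra-33*, at distances of 1735 and 2755 bases.

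Over the superfamilies, the median log2 fold change was -0.11 for the 38 Str genes, -0.12 for the 14 Sra genes and -0.07 for the 19 Srg genes tested. It was -0.39 for the 19 genes of the families outside them, to which the *srw* and *srsx* genes belong, with 6 above 0 and 13 below. The Str genes and the genes outside the superfamilies are without the genes left out here. The median of the Srg genes changed sign with the genes taken. It was 0.21 over the 7 Srg genes tested that share no exon base with another gene, and 0.01 when all Srg genes that passed the filter were taken.

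**Figure D5:**
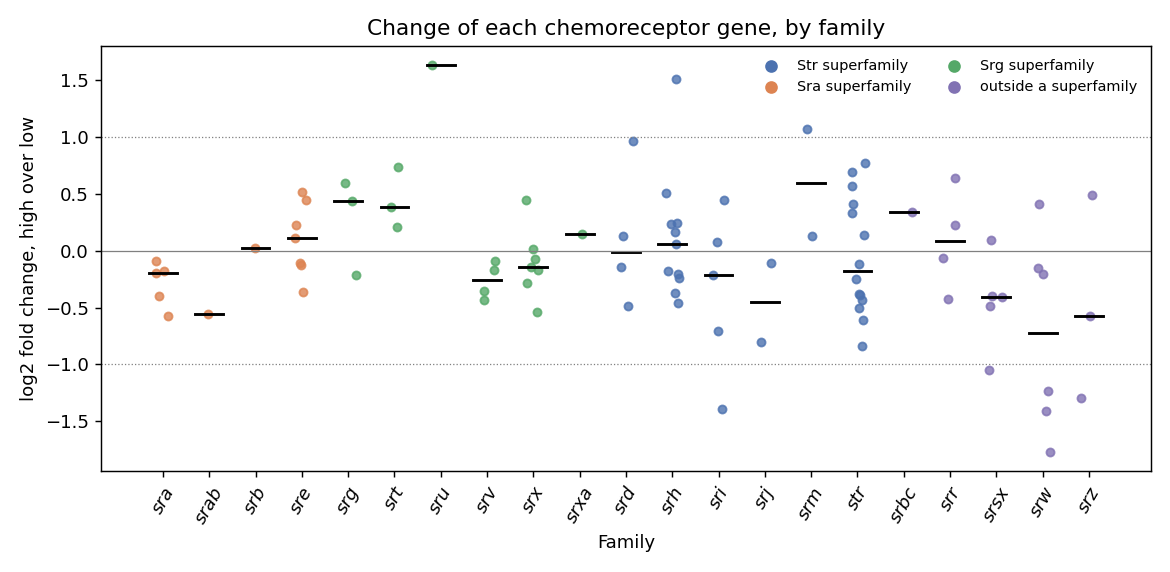
Log2 fold change, high over low, of each chemoreceptor gene tested (points, with random sideways shift), by family and coloured by superfamily. Bars are family medians and dotted lines mark the fold change threshold of 1. The *srw* points at -1.77, -1.41 and -1.24 are the 3 neighbouring genes, and *sru-20* (1.63) and *srh-171* (1.51) are highest.

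In 5 families only 1 gene was in the table, of which *sru-20* is described above. *srab-4* had a log2 fold change of -0.55 (SE 0.463), *srb-16* of 0.02 (SE 0.503), *srbc-82* of 0.34 (SE 0.323) and *srxa-10* of 0.15 (SE 0.443). *srb-16* had 23.4, 9.42 and 17.2 normalized counts at low and 25.1, 16.2 and 9.64 at high exopher number. *srg-34*, the second receptor of the literature list, had 26.2, 40.8 and 46.0 against 23.2, 36.4 and 37.6. In both genes the groups overlapped over most of their range. *str-227*, at the threshold of the table, had 5, 2 and 18 counts at low and 12, 12 and 13 at high exopher number, a log2 fold change of 0.41 (SE 0.726). It was 1.76 without low replicate 3 and -0.0681 without low replicate 2.

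The signs of neighbouring members were also compared. There were 7 pairs of successive members with at most 10000 bases between them, and in all 7 both genes had the same sign. Of these, 2 pairs came from the *srw* genes and 2 from the *sra* genes named above. *srx-97* and *srx-98*, which share 94 exon bases on the same strand, had log2 fold changes of -0.14 and -0.28. *str-225* and *str-227*, 8937 bases apart, had 0.14 and 0.41. *srh-70* and *srx-118*, from different families, had -0.24 and -0.07. Apart from the *srw* genes and *sra-32*, all of these values were smaller than their standard errors, and some pairs share a gene. *srw-69* and *srw-71* passed the filter only through the low exopher libraries. The share of same-sign pairs over all neighbouring genes was not computed, so nothing is read from the number of pairs.

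In the annotation, 32 of the 92 genes share exon bases with another gene, 15 on the same strand and 20 on the other. The overlap exceeded 100 bases in 14 of them. Of the 8 genes with an unadjusted p below 0.05, none shares an exon base. Over the 60 genes without any shared base, 25 of those tested were above 0 and 33 below, with a median of -0.13.

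Genes that act with the receptors were taken from a list. Of its 22 genes for receptor trafficking and signal transduction, 19 were tested, 11 were above 0 and 0 passed the thresholds in either direction, against 5.74% of all genes, with a median log2 fold change of 0.08. *odr-4* and *odr-8*, which bring receptors to the cilium, had log2 fold changes of 0.06 (SE 0.0623) and -0.02 (SE 0.0645). The highest values were those of the G protein gamma subunit *gpc-1* (1.20, SE 0.354), the cyclic nucleotide-gated channel subunit *tax-4* (1.18, SE 0.393) and the receptor guanylate cyclase *daf-11* (1.13, SE 0.402), with edgeR adjusted p values of 0.103, 0.150 and 0.185. The lowest were those of the G protein alpha subunit *gpa-13* (-0.98, SE 0.502), the TRP channel *ocr-2* (-0.75, SE 0.431) and the transcription factor *mef-2* (-0.49, SE 0.287), with 0.405, 0.475 and 0.493.

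Other markers gave the setting. All 18 genes of a list for ciliated neurons were above 0, against 47.2% of all genes tested, with a median of 0.98. Of the 18, 6 passed the thresholds as higher, against 2.95% of all genes. The summed normalized counts of the list were 4547 to 5049 at low and 6537 to 6838 at high exopher number. In a list of 15 genes used by all neurons, 6 were above 0 and 0 passed the thresholds, against 5.74% of all genes. The median was -0.03 and the sums were 25039 to 28138 and 23711 to 25646. Of 14 sperm genes tested, 8 passed with lower expression, against 2.78% of all genes. *msp-3* and *msp-51* had 0 counts in the high exopher libraries, and *msp-10*, *msp-19*, *msp-142* and *gsp-3* had means of at most 0.66 there. These genes passed the filter on low counts through the low exopher libraries alone, so their calls are no support for a difference. The sums for the list were 3173 to 5938 and 1998 to 2362. Most of the sum at high exopher number came from *spe-44*, with means of 1477 at low and 1447 at high. Of 13 genes of the early embryo tested, 2 were above 0 and 0 passed, against 5.74% of all genes. The sums of that list overlapped between the groups (3241 to 4813 and 2405 to 5729). The part of these cells in the receptor levels was not tested.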

How the data were processed

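The authors deposited raw counts per gene. They trimmed paired-end reads with Trimmomatic 0.36, aligned them with STAR 2.5.2b to an Ensembl genome (release not stated in the sources used here), and counted uniquely aligned reads in exons with featureCounts (Subread 1.5.2). A second deposited table holds a scaled signal (counts over the DESeq2 size factor of each library) and served here only to define the genes. Close copies lose reads under such counting, and whether strand was used is not stated.

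Tests on the raw counts were run with edgeR 4.0.16 in R 4.3.3 (filterByExpr, TMM, robust quasi-likelihood F test, Benjamini-Hochberg adjustment over all 15883 genes), with limma 3.58.1 and DESeq2 1.42.0 as alternatives. Standard errors are the log2 fold change over the square root of F. The method was tested on simulated data, in which the changed genes were drawn from the genes tested and not from the receptors. That does not show how it performs at counts as low as those of most receptors here. Total counts per library were 60511481 to 72909583. P-values set the difference between the groups against the spread between these libraries, with the spread of each gene moderated across genes. With the block, it is the spread left after the replicate number.

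Symbols and positions are those of Ensembl release 115 (WBcel235), which held 46581 of the 46756 identifiers, and 43798 had a symbol. No genome sequence was used. Genes named were those with an unadjusted p below 0.05, the 8 highest per kilobase, the 3 highest and lowest fold changes, single members of a family, members of the literature list and those at the threshold of the table. Others were named after their values were seen. The genes and lists were chosen with earlier results of these data known.

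For libraries with the same number, deviations from the group mean had correlations of 0.282, 0.259 and 0.345 over 15883 genes, which are not independent. Differently numbered libraries gave -0.172 to -0.119. Deviations from a group mean cancel out over its libraries, so these negative values follow from the positive ones and are no separate support. The labels state no pairing, so the block was an alternative.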

Additional observations from a re-analysis of the deposited data

How the results depend on the processing

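None of the 92 genes passed the thresholds with DESeq2 size factors, DESeq2, limma-voom, no filter on low counts, the genes of the deposited table, no fold change minimum or any 1 library left out, each with the other choices unchanged. The replicate block gave 1 higher and 1 lower gene, and DESeq2 with that block, added after the data were seen, gave 0. The block changed no other call among the genes named. Leaving out 1 library moved the number of all genes called from 469 higher to between 5 and 465 and from 442 lower to between 0 and 663, and without a filter on low counts 670 were lower. The fewest were called without high replicate 1. The median log2 fold change of the members ranged from -0.13 to 0.0079 when 1 library was left out and from -0.14 to -0.11 under the other alternatives.

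With 1 library left out, the log2 fold change crossed 0 for 43 of the 90 genes tested. Among those named by the rule these were *sra-10* (-0.25 to 0.0015), *sra-14* (-0.80 to 0.0465), *srb-16* (-0.38 to 0.33), *srh-237* (-0.61 to 0.16), *srv-1* (-0.26 to 0.11), *srw-86* (-0.36 to 0.0309), *srxa-10* (-0.0313 to 0.39) and *str-227* (-0.0681 to 1.76), none of which was called. The cause was not tested. Over all libraries, 33 of the 92 genes had fewer than 100 counts.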
